A study of Mus musculus with 16 samples.

Results

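The 10 genes described here code for folliculin and its partners (Flcn, Fnip1, Fnip2), the Rag GTPases (Rraga, Rragb, Rragc, Rragd) and the TFE transcription factors (Tfeb, Tfe3, Mitf). They were chosen by name and function, with earlier results of these data known. All 10 of the 10 listed were found among the 19938 genes measured. Each was named through a probe row with a single gene symbol. The cells were N25/2, an immortalized line derived from embryonic mouse hypothalamus, a single line grown in serum and antibiotics. Control cells were kept in medium with amino acids and deprived cells in medium without any, for 1, 2, 3, 5 or 16 h. Whole-transcript arrays gave 4 control and 4 deprived samples at 5 h and 1 of each at every other time, 16 arrays in all. A change is written as deprived minus control on the log2 scale, with the standard error (SE) from limma. At 5 h each group had n = 4 arrays. A gene said to have risen or fallen at 5 h was higher or lower in deprived than in control cells at that time. No array was taken before treatment, so this is not a change from an earlier level.

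Rag GTPases sit on the lysosome as heterodimers of RagA or RagB with RagC or RagD, and when amino acids are plentiful they bring the growth kinase complex mTORC1 to the lysosomal surface. Folliculin, bound to FNIP1 or FNIP2, is the GTPase-activating protein for RagC and RagD. Active mTORC1 phosphorylates TFEB, TFE3 and MITF and keeps them in the cytoplasm. Without amino acids these factors enter the nucleus and activate genes of lysosomes and autophagy through an E-box motif, and Flcn, Fnip2, Rragc and Rragd have been described among the genes they switch on. The arrays measured RNA of these genes, not where their proteins were or whether they were active.

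The promoters of 4 of the genes are shown because they differ in that E-box. All 10 genes had an entry in the RefSeq promoter table (build GRCm38.p6), with 15 windows of 300 bases that run from 250 bases before a gene's start to 50 after it. The palindrome CACGTG, searched on both strands, was found in 3 of the 15 windows, those of Fnip1, Rragb and Rragc, and in 7.15% of all 32851 promoter windows. Each of these windows also held TCACGTG, a longer form that contains CACGTG and was likewise searched on both strands, which 3.77% of all windows held. The related TCATGTG (3.77% of all windows) and TGATGNAA, a form of the element that the amino acid response factor Atf4 binds (3.97%), were in none of the 15. A match is a string of letters, not a site shown to be bound, and the lack of one says only that these letters are not in this window.

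Each line gives the 200 bases before the start, 5′ to 3′ on the gene's strand, with CACGTG in capitals. Fnip1 lies at chr11:54437979-54438178 (plus strand), Rragc at chr4:123917233-123917432 (plus), Rragb at chrX:153139758-153139957 (plus) and Flcn, shown as a gene of this set with no match, at chr11:59810040-59810239 (minus).
Fnip1: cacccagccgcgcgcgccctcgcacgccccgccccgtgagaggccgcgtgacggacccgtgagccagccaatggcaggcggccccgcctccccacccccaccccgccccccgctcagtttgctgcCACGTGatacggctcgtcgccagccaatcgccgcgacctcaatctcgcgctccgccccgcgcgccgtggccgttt
Rragc: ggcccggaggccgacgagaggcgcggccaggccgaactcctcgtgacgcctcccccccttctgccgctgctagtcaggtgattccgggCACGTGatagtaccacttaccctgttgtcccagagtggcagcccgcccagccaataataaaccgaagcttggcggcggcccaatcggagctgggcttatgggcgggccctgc
Rragb: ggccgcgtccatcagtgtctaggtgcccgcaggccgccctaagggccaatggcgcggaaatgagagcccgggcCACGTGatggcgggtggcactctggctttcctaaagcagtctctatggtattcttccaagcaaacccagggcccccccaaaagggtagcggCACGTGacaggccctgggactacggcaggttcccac
Flcn: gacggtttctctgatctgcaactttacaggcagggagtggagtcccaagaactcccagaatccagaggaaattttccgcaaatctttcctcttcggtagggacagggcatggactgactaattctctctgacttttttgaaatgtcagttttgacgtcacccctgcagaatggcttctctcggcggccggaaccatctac
The motif begins 75 bases before the start of Fnip1 and 112 bases before that of Rragc. In Rragb it begins at 127, 36 and 3 bases before the start, and the last match runs past the printed stretch.

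After 5 h without amino acids, Flcn, Fnip1, Fnip2 and Rragc were higher in deprived cells, by 1.61-, 1.78-, 1.37- and 1.55-fold. In limma, 4 of the 10 had an adjusted p under 0.05, all upward, against 4.11% of all genes in either direction and 2.41% upward. None of the 10 passed in the downward direction, against 1.7% of all genes. The other 6, Rraga, Rragb, Rragd, Tfeb, Tfe3 and Mitf, did not pass. Genes above the median level of all genes, fitted alone, gave 957 calls in place of 820. Calls were thus more frequent among them than among all genes, and the same 4 members passed there. The median change over the 10 genes was 0.228, beside -0.0131 over all genes tested. In the same 4 genes every deprived array at 5 h lay above every control array, which held for 5.15% of all genes, and none of the 10 was lower on every array, against 5.38%. Flcn, Fnip1 and Rragc changed by at least 0.5, as did 2.01% of all genes in that direction. With the replicate number as a block 5 of the 10 passed, all upward, against 18.2% of all genes (8.22% upward); without both arrays numbered 4 it was 4, all upward, against 13.5% (6.34% upward, 7.17% downward). With array weights 8 passed, 7 of them upward, against 27.5% (13.1% upward). The labels do not name separate cultures within a group, and p-values then reflect only how these arrays scattered, in part perhaps for technical reasons. In RNA from a whole culture, fewer cells of a type and less RNA per cell cannot be told apart.

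**Figure D1:**
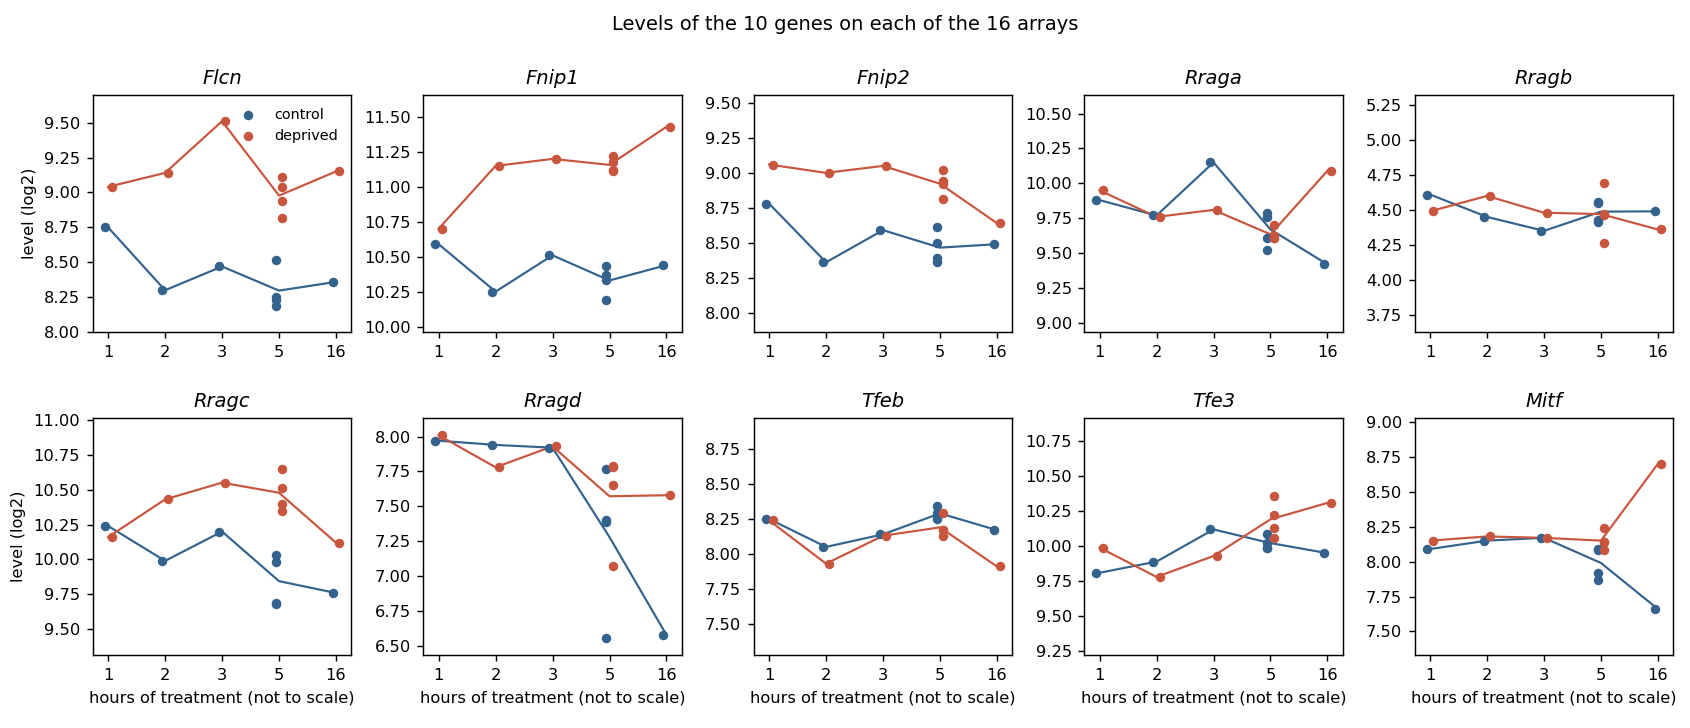
Level (log2, deposited values) of each of the 10 genes on each array, plotted against hours of treatment for control (blue) and deprived (red) cells, with lines through the means and the same height of axis in every panel. Flcn and Fnip1 show all 8 deprived arrays above all 8 control arrays, while Rragd falls in control cells to 6.58 at 16 h.

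Flcn, the catalytic partner of the complex, was at log2 levels of 8.52, 8.19, 8.23 and 8.25 on control arrays 1 to 4 at 5 h. On deprived arrays 1 to 4 it was at 8.94, 9.04, 8.82 and 9.11. The lowest deprived array was thus above the highest control array, and the 3 controls numbered 2 to 4 lay close together below array 1. The change was 0.68 (SE 0.10), with an adjusted p = 0.00468 in limma.

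Flcn was also higher at every time with a single array per group. The levels were 8.75 in control and 9.04 in deprived cells at 1 h, 8.30 and 9.14 at 2 h, 8.47 and 9.51 at 3 h, and 8.36 and 9.15 at 16 h. The difference was 0.29 after 1 h, 0.84 after 2 h, 1.04 after 3 h and 0.79 after 16 h. The deprived level was highest at 3 h, and the control level was highest at 1 h.

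Fnip1, which codes for a folliculin-interacting protein, had the largest change of the 10 genes at 5 h. Control arrays 1 to 4 were at 10.43, 10.19, 10.33 and 10.37, and deprived arrays 1 to 4 at 11.12, 11.22, 11.11 and 11.18. The deprived arrays were tightly grouped (SD 0.05), and no array of either group came near the other group. The change was 0.83 (SE 0.08), with an adjusted p = 0.000418 in limma.

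At 1 h the level of Fnip1 was 10.59 in control and 10.70 in deprived cells, a difference of 0.11. The difference was 0.90 at 2 h, with levels of 10.25 and 11.15, and 0.70 at 3 h, with levels of 10.51 and 11.20. At 16 h it was 0.99, from 10.44 to 11.43, the highest level of the gene on any array. Most of the separation was therefore present by 2 h in these single arrays. For both Flcn and Fnip1 the lowest of all 8 deprived arrays lay above the highest of all 8 control arrays, which 0.456% of all genes showed.

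Fnip2 codes for the second folliculin-interacting protein. Its control arrays 1 to 4 at 5 h were at 8.61, 8.39, 8.36 and 8.50 and its deprived arrays at 8.81, 8.94, 8.92 and 9.02. The groups did not overlap, and control array 1 and deprived array 1 were the closest to each other. The change was 0.45 (SE 0.08; adjusted p = 0.0153 in limma). Its call was lost without control array 2 (adjusted p = 0.0674), deprived array 2 (0.0575) or deprived array 3 (0.0584), and 0.0674 was its highest value among the 19 settings run (lowest 2.34e-05).

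At the single-array times Fnip2 was higher by 0.28 (1 h), then 0.63 (2 h) and 0.47 (3 h), and last by 0.15 (16 h). Its control levels were 8.78, 8.36, 8.59 and 8.49 at these times and its deprived levels 9.06, 9.00, 9.05 and 8.64. The deprived level at 16 h lay below the control level at 1 h, unlike that of Flcn or Fnip1.

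Both Fnip genes were higher in deprived than in control cells at 5 h. The response of Fnip1 exceeded that of Fnip2 by 0.38 (SE 0.05), taken as the difference between the genes within each array. The exact two-sided permutation test over the 8 arrays gave p = 0.0286, the smallest it can give with 70 ways to divide the arrays. After adjustment over the 6 pairs compared it was 0.0857, so the difference did not pass. Even the smallest p can pass this adjustment only if most of the 6 pairs reach it, so the test cannot decide on 1 pair alone. Leaving out any single array gave differences in response of 0.35 to 0.41.

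**Figure D2:**
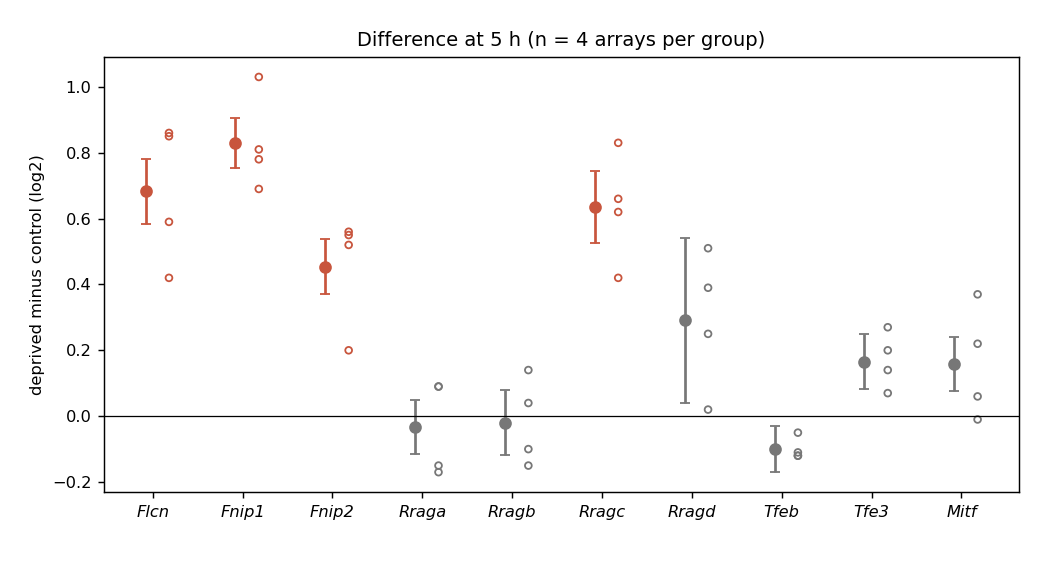
Deprived minus control at 5 h (log2) for each gene: filled points are limma's estimates with their SE (n = 4 arrays per group), open points the differences between arrays of the same number, and red marks an adjusted p under 0.05. Fnip1 at 0.83, Flcn at 0.68, Rragc at 0.64 and Fnip2 at 0.45 are marked; for Rragd the SE is 0.25.

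Among the Rag GTPases, Rragc alone passed at 5 h. Rragc codes for RagC, a partner in the heterodimer and a substrate of folliculin's activity. Its control arrays 1 to 4 were at 9.98, 9.68, 9.69 and 10.03, and its deprived arrays at 10.40, 10.51, 10.35 and 10.65. Arrays 1 and 4 were the upper pair among the controls, and the groups were still apart. The change was 0.64 (SE 0.11; adjusted p = 0.0113 in limma).

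Rragc differed by -0.08 at 1 h, when the levels were 10.24 in control and 10.16 in deprived cells. The difference was 0.44 at 2 h (9.99 and 10.43), 0.35 at 3 h (10.20 and 10.55) and 0.36 at 16 h (9.76 and 10.12). Its deprived level at 16 h was below that at 1 h, and the control level was lower still.

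Rragd, the gene of the close relative RagD, did not pass at 5 h. On control arrays 1 to 4 it was at 7.77, 7.39, 7.40 and 6.56, and on deprived arrays 1 to 4 at 7.79, 7.78, 7.65 and 7.07. Array 4 was the lowest of both groups, and the groups overlapped. The change was 0.29 (SE 0.25; adjusted p = 0.845 in limma), but blocking on the array number brought the adjusted p to 0.0252. The estimate was 0.05 without control array 4, 0.46 without deprived array 4 and 0.22 without both (adjusted p = 0.213 in limma).

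Over time Rragd went down in control cells. Its control levels after 1, 2, 3 and 16 h were 7.97, 7.94, 7.92 and 6.58, and its deprived levels 8.01, 7.78, 7.93 and 7.58. The difference of 1.00 at 16 h thus came with a change from 1 to 16 h of -1.39 in control and -0.43 in deprived cells. Control array 4 at 5 h was as low as the control at 16 h.

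For Rragc and Rragd the responses at 5 h differed by 0.34 (SE 0.38; exact permutation p = 0.4, adjusted over 6 pairs 0.6). Without single arrays this difference ran from 0.118 (without deprived array 4) to 0.645 (without control array 4), and its SE was larger than the difference itself. Arrays of the same number were not paired in this SE or test. Both therefore take in the low Rragd level of array 4 in control (6.56) and deprived cells (7.07).

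Rraga codes for RagA, the main partner of RagC in many cells. At 5 h its control arrays 1 to 4 were at 9.76, 9.79, 9.52 and 9.61 and its deprived arrays at 9.61, 9.62, 9.61 and 9.70. The groups overlapped throughout, with a change of -0.03 (SE 0.08; adjusted p = 1 in limma). At the other times it differed by 0.07 (1 h), -0.01 (2 h), -0.34 (3 h) and 0.67 (16 h). The value at 3 h went with the highest control level (10.15) and that at 16 h with the lowest (9.42).

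Rragb, which codes for the RagA relative RagB, was at 4.26 to 4.69 on all 16 arrays, near the lower end of the deposited values, which began at 3.07. Its change at 5 h was -0.02 (SE 0.10; adjusted p = 1 in limma), and its single-array differences were -0.12, 0.15, 0.13 and -0.14 at 1, 2, 3 and 16 h. The responses of Rraga and Rragb differed by -0.01 (SE 0.11; exact permutation p = 0.886, adjusted over 6 pairs 0.943). Probes of such close relatives may share target RNA, which was not tested.

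None of the TFE factor genes passed at 5 h. Tfeb, the best known lysosomal regulator of the family, was at 8.25, 8.28, 8.29 and 8.34 on control arrays 1 to 4 and at 8.13, 8.17, 8.17 and 8.29 on the deprived arrays. Each deprived array was below the control array of its number, by little, and deprived array 4 reached into the control range. The change was -0.10 (SE 0.07; adjusted p = 0.71 in limma). In single arrays Tfeb differed by 0.00 (1 h), -0.12 (2 h), -0.01 (3 h) and -0.26 (16 h).

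Tfe3 was at 10.02, 9.99, 9.99 and 10.09 on control arrays 1 to 4 and at 10.22, 10.13, 10.06 and 10.36 on the deprived arrays. Here each deprived array was above the control array of its number, while deprived array 3 lay below control array 4. The change was 0.17 (SE 0.08; adjusted p = 0.461 in limma). Tfe3 differed by 0.18 (1 h), -0.11 (2 h), -0.19 (3 h) and 0.36 (16 h) elsewhere in the course.

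Mitf, known as the master regulator of pigment cells, was at 8.08, 7.87, 7.92 and 8.09 on control arrays 1 to 4 and at 8.14, 8.24, 8.14 and 8.08 on the deprived arrays. Only deprived array 4 fell among the controls. The change was 0.16 (SE 0.08; adjusted p = 0.473 in limma). The differences were 0.06, 0.03 and 0.00 after 1, 2 and 3 h, but 1.05 after 16 h (2.06-fold), where control cells had their lowest level (7.66) and deprived cells their highest (8.70). A second probe row of Mitf averaged 3.64, near the lowest deposited value, and was not used.

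The response of Tfeb minus that of Tfe3 at 5 h was -0.27 (SE 0.05). The exact permutation p was 0.0286, the smallest possible, and 0.0857 after adjustment over the 6 pairs. The responses of Tfeb and Mitf differed by -0.26 (SE 0.08; exact p = 0.0571, adjusted 0.114) and those of Tfe3 and Mitf by 0.01 (SE 0.10; exact p = 0.943, adjusted 0.943). None of the 6 pairs thus passed after adjustment, which a pair at the smallest p could do only if most of the 6 reached it.

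**Figure D3:**
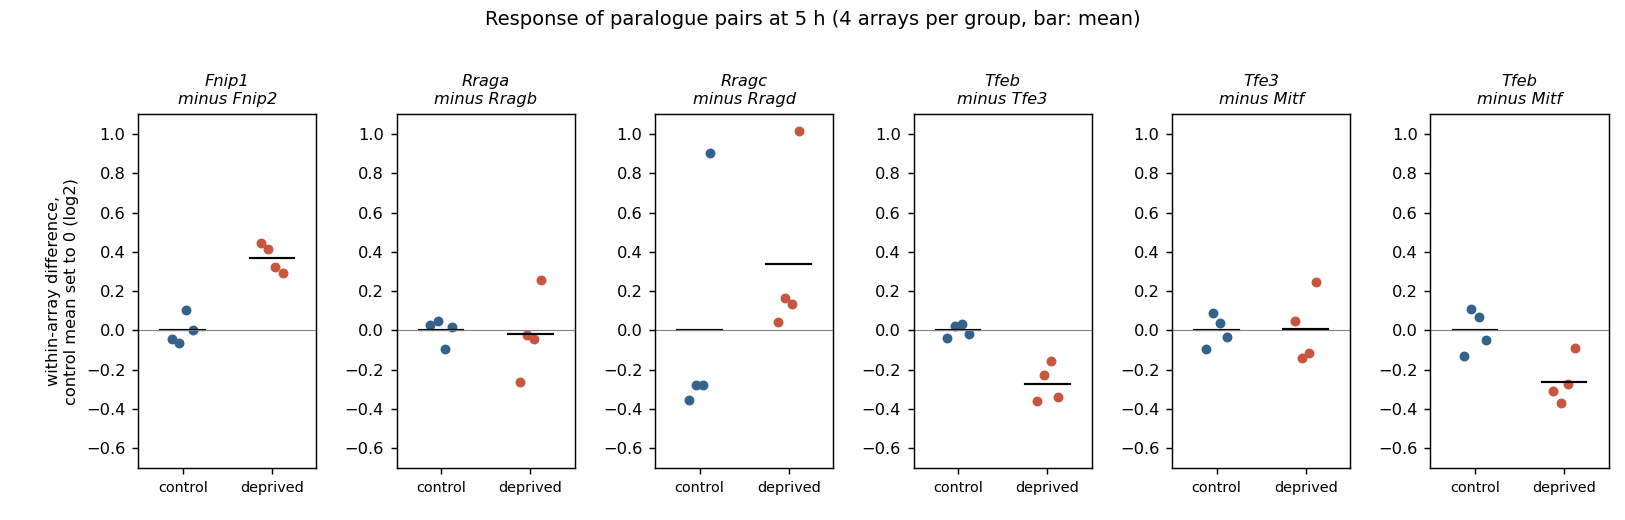
Difference in log2 level between paralogues within each 5 h array, with the control mean of each pair set to 0, for control (blue) and deprived (red) cells; bars mark the means of 4 arrays. The groups are apart for Fnip1 minus Fnip2 and for Tfeb minus Tfe3, and array 4 stands high in both groups for Rragc minus Rragd.

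Across the times with a single array per group, differences had no replicate check. At 1 h none of the 10 genes was higher by 0.5 or more, against 0.226% of all genes. At 2 h Flcn, Fnip1 and Fnip2 were (3 of 10, against 0.787% of all genes), and at 3 h Flcn and Fnip1 (2 of 10, against 0.843%). At 16 h Flcn, Fnip1, Rraga, Rragd and Mitf were (5 of 10), but 9.36% of all genes were too. None of the 10 was lower by 0.5 or more at any of these times, as 0.557%, 0.978%, 1.1% and 8.99% of all genes were after 1, 2, 3 and 16 h. Flcn, Fnip1, Fnip2 and Mitf were higher at each of the 4 times, which held for 8.18% of all genes; for Mitf the difference at 3 h was 0.00 when rounded.

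**Figure D4:**
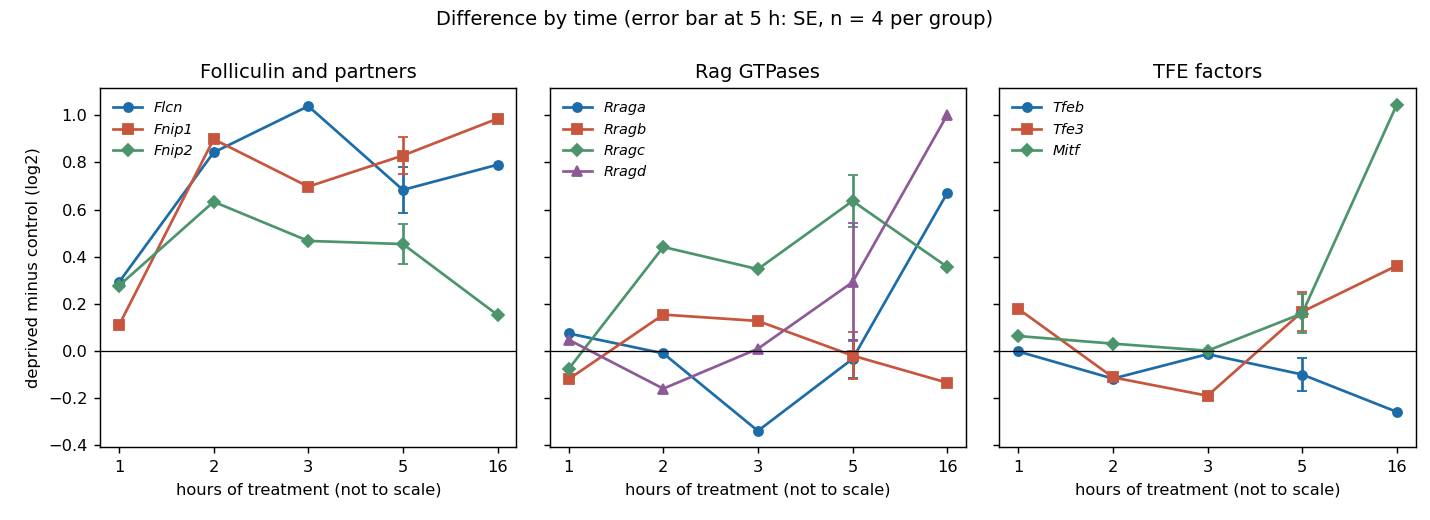
Deprived minus control (log2) by hours of treatment for folliculin and its partners, the Rag GTPases and the TFE factors; the bar at 5 h is the SE (n = 4 arrays per group), and the other times are single arrays. Flcn, Fnip1 and Fnip2 are above 0.6 at 2 h, and Rragd and Mitf reach 1.00 and 1.05 only at 16 h.

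Averaged over 1, 2, 3 and 16 h in a limma fit with time as a factor, Flcn was higher by 0.74 (SE 0.13), Fnip1 by 0.67 (SE 0.15), Fnip2 by 0.38 (SE 0.10) and Rragc by 0.27 (SE 0.10). None passed an adjusted p of 0.05 (0.492, 0.595, 0.68 and 0.792), and neither did any of the 19938 genes in this fit (0%). At an unadjusted p under 0.05 these 4 members were the ones called, against 1244 of all genes (6.24%). The difference at 5 h minus this mean was largest for Rragc, at 0.37 (SE 0.16; adjusted p = 1 in limma). It was 0.16 (SE 0.17) for Fnip1, 0.07 (SE 0.13) for Fnip2 and -0.06 (SE 0.16) for Flcn. No gene passed that test after adjustment (0%), and 484 genes did without it (2.43%), Rragc among them. With 1 array per group at 1, 2, 3 and 16 h, the SEs of both fits also take in how the difference changed between those times. Neither fit can tell such change from scatter between arrays, so not passing does not show that the times were alike.

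Over all 16 arrays, the genes whose levels ran most like those of the called members were found by Pearson's r, which here takes in both treatments and all times. For Flcn these were Sesn2, an inhibitor of mTORC1 (r = 0.947), Chac1, a glutathione-degrading enzyme (r = 0.944), and Fnip1 (r = 0.907). For Fnip1 they were Ppp1r15a, a regulatory subunit of the phosphatase acting on eIF2alpha (r = 0.96), the transcription factor gene Cebpg (r = 0.96) and Smcr8 (r = 0.957), whose product has a domain of the kind also found in folliculin. For Fnip2 they were Snx30 (r = 0.903), the lysosomal Pip4p1 (r = 0.899) and Flcn (r = 0.896). For Rragc they were Gla, a lysosomal galactosidase (r = 0.93), Vps26a, a retromer subunit (r = 0.926), and Pfkfb2 (r = 0.925). These genes were picked with the 5 h arrays included, so their changes at 5 h are no separate result. Of these genes, Chac1 rose by 2.12 (SE 0.10), Sesn2 by 1.85 (SE 0.13), Ppp1r15a by 1.79 (SE 0.14) and Cebpg by 1.16 (SE 0.09) at 5 h. Smaller changes were those of Smcr8 at 0.48 (SE 0.08), Vps26a at 0.42 (SE 0.09) and Snx30 at 0.39 (SE 0.07). Pfkfb2 differed by 0.37 (SE 0.11) without passing (adjusted p = 0.117 in limma).

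Other components of the pathway were counted in the same way. Of 26 measured genes of the Ragulator, GATOR and KICSTOR complexes, mTORC1, its TSC and Rheb regulators and amino acid sensors, 2 rose at 5 h and none fell, against 2.41% of all genes upward and 1.7% downward. The replicate block gave 7 higher and 3 lower genes, against 8.22% and 10% of all genes. All 26 averaged above the median level of all genes, where calls were more frequent. Among genes above that level, fitted alone, again 2 of the list rose. Akt1s1, which codes for the mTORC1 inhibitor PRAS40, rose by 0.74 (SE 0.12), from 9.25 (SD 0.16) to 9.99 (SD 0.20). Lamtor3, a subunit of the Ragulator that anchors the Rag GTPases, rose by 0.41 (SE 0.09). The median change of these genes was 0.00751. With single arrays left out, 1 or 2 genes passed; it was 1 without any of control or deprived arrays 1 to 3.

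Of 21 genes that act on the TFE factors or bind folliculin (among them 14-3-3 proteins, calcineurin, kinases, GABARAP proteins and Tfec), 3 rose and none fell (all genes 2.41% and 1.7%), with a median of -0.00755. Under the block 4 were higher and 1 lower (all genes 8.22% and 10%). Of the 21 genes, 19 averaged above the median level of all genes, where calls were more frequent. Gabarapl1, of a family of autophagy proteins that bind the folliculin complex, rose by 0.89 (SE 0.09), Gsk3b, a kinase, by 0.42 (SE 0.07) and Prkaa2, a catalytic subunit of AMPK, by 0.40 (SE 0.09). The count was 1 without control array 2 or deprived array 1.

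Of 40 measured lysosomal and autophagy genes described as targets of TFE factors, 5 rose and none fell (all genes 2.41% and 1.7%). Their median change was 0.131, above that of all genes (-0.0131). All 40 averaged above the median level of all genes, where calls were more frequent. Among genes above that level, fitted alone, 7 of the list rose. Ctns, the lysosomal cystine exporter, rose by 0.79 (SE 0.19), Clcn7, a lysosomal chloride and proton exchanger, by 0.74 (SE 0.08), and Gla by 0.66 (SE 0.09). The autophagy receptor gene Sqstm1 rose by 0.53 (SE 0.08) and Pip4p1 by 0.38 (SE 0.08). Blocking on the array number gave 15 higher and 2 lower genes (all genes 8.22% and 10%), and without both arrays numbered 4 the counts were 10 and 1 (all genes 6.34% and 7.17%). Left out alone, control array 4 gave 9 and each of the other arrays 3. The list's median differences after 1, 2, 3 and 16 h were -0.0541, 0.0705, 0.0917 and 0.113.

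**Figure D5:**
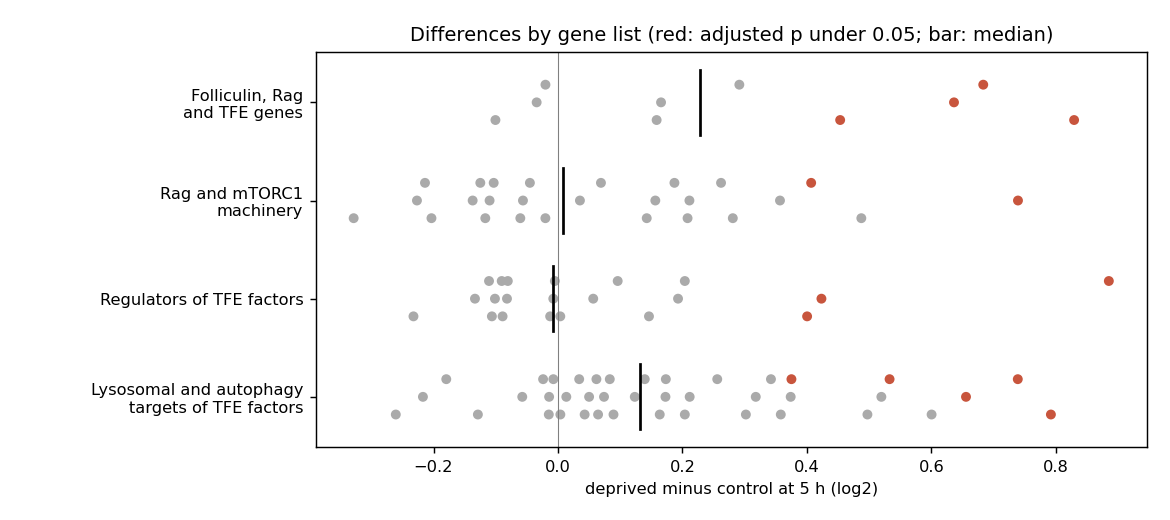
Deprived minus control at 5 h (log2) for each gene of 4 lists, with genes past an adjusted p of 0.05 in red and the list's median as a bar; vertical offsets only separate points. Of the 10 folliculin, Rag and TFE genes 4 are red, against 2 of 26, 3 of 21 and 5 of 40 in the other lists.

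Several measures of the whole series bear on these values. All 8 genes of a short amino acid response list rose at 5 h, by 0.68 to 2.52. Array medians ran from 7.02 to 7.12, and both arrays numbered 4 differed from the rest in the same way: with the number as a block 3632 genes passed (18.2%), and without both arrays 2695 (13.5%), in place of 820. The 6 progenitor markers averaged 13.70 (Vim), 10.69 (Sox2), 10.34 (Nes), 8.21 (Notch1), 5.96 (Pax6) and 5.38 (Prom1) over the 16 arrays. The 10 hypothalamic markers ran from 4.12 (Crh) to 8.31 (Oxt), with Otp at 8.23, Sim1 at 7.98, Npy at 7.26 and Pomc at 6.55. The files hold no detection calls, so absence was not judged. Nes fell at 5 h by 0.69 (SE 0.12), and its part in the members' values was not tested. None of 8 melanocyte markers passed at 5 h, and neither did Mitf, which is not on that list. The mean level of the 8 was 5.95 to 6.41 on control and 5.97 to 6.34 on deprived arrays at 5 h. Over the 16 arrays the 8 averaged from 4.96 (Tyr, which codes for tyrosinase) to 7.26 (Mlana). Neuron markers averaged from 5.22 (Nefl) to 12.25 (Stmn2), astrocyte markers from 5.77 (S100b) to 11.74 (Slc1a3) and fibroblast markers from 4.46 (Lum) to 12.03 (Col1a1). None of the 10 neuron, 10 hypothalamic, 5 astrocyte, 4 oligodendrocyte, 6 microglia, 5 endothelial or 5 fibroblast markers passed at 5 h, against 4.11% of all genes. With the block 1 of the 10 neuron markers was higher, against 8.22% of all genes. Lower under the block were 3 of 5 fibroblast, 2 of 6 progenitor and 1 of 4 oligodendrocyte markers, against 10% of all genes.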

How the data were processed

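Per the labels' protocols, 250 ng of total RNA from each culture sample was amplified into cDNA for Affymetrix arrays that cover whole transcripts. The values the authors deposited are log2 levels; the submitters' processing notes name RMA (robust multi-array averaging), and its settings and the genome build are not given in the sources used here. The number of arrays limits the precision. Rows with 1 gene symbol in the platform annotation (21789 of 35556) were used, symbols were updated by Entrez identifier (21698 matched), and of several rows the one with the highest mean over 16 arrays was kept, leaving 19938 genes. No further normalization was applied.

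Groups were taken from the sample titles. Tests used limma 3.58.1 in R 4.3.3 (lmFit, eBayes, two-sided, Benjamini-Hochberg over all genes, threshold 0.05) and exact permutation tests in scipy 1.17.1. They were tested on simulated data. For limma the simulated arrays scattered independently, unlike the 5 h arrays, where those of the same number deviated together. Single-array differences were counted from 0.5 on the log2 scale. The members and lists were chosen with earlier results of these data known. Some genes of the lists were not analysed here. Named genes were all members, up to 5 called genes of each pathway list by size of change, and the 3 genes most like each called member; cell type markers and their values were named after being seen.

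At 5 h, same-numbered arrays of both groups deviated together from their group means (correlations 0.354, 0.584, 0.467 and 0.896), and limma was also run with the numbers as blocks. Differently numbered arrays among 1 to 3 correlated at 0.133 to 0.68, so mainly number 4 stood apart (-0.745 to -0.338 against other numbers), and the labels do not say what a number stands for. Alternatives covered normalization, low levels, several rows of a gene, the variance prior, array weights and left-out arrays. Promoters came from RefSeq (GRCm38.p6), all 10 genes matched by Entrez identifier.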

Additional observations from a re-analysis of the deposited data

How the results depend on the processing

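All of Flcn, Fnip1 and Rragc passed at 5 h in each of the 19 settings, with changes of 0.64 to 0.76, 0.78 to 0.86 and 0.58 to 0.70 when single arrays were left out. Fnip2 passed in 16. The 19 settings include the main fit and a fit to all 16 arrays, which repeated the main fit's values at 5 h. Averaging a gene's rows could alter the level of Mitf only, the only member with a second row. With the replicate block 5 of the 10 genes passed, since Rragd was added, and the block changed no other member's call. With array weights 8 passed (Rraga at -0.16, Rragd at 0.32, Tfe3 at 0.15 and Mitf at 0.27 were added), but so did 5485 of all genes (27.5%). Over all genes 820 passed, 3632 with the replicate block, 1231 after another quantile normalization, 2695 without both arrays numbered 4, and 382 to 1066 with single arrays left out. For the mean over 1, 2, 3 and 16 h, and for 5 h against the other times, no member passed in any setting. The paralogue differences were recomputed with the block, with the mean of a gene's rows and with single arrays left out, and there moved by less than the spread between arrays; the other settings were not run for them. With the number as a block, 4 pairs cannot give an exact p under 0.05, nor can 3 arrays against 4, so those settings have values and no test. Rragb was left out by the limit on low levels.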
